A study of Homo sapiens with 4 samples.

Results

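The genes described here are 42 members of the complement and coagulation systems, the plasma proteins that hepatocytes secrete for innate defence and for clotting. They were taken as a fixed list of names, and chromatin accessibility around them was read from all ATAC-seq peaks that overlapped a member's gene body or the 10 kb on either side (GENCODE release 44, hg38). Peaks of the 4 libraries sharing 1 bp or more were joined into regions, and 152 of 80551 regions lay in these windows, and 41 of the 42 members had at least 1 region. F9, which encodes clotting factor IX, had none.

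The libraries were made by Omni-ATAC-seq, in which a transposase cuts and tags accessible DNA, from 50000 cells each of HepG2, a hepatocyte-like line derived from a human liver tumour. In 2 control libraries (control 1 and 2) the wild-type cells were untreated, and in 2 tazemetostat libraries (tazemetostat 1 and 2) they received 5 µM of tazemetostat, an inhibitor of the histone methyltransferase EZH2, for 48 h. The labels give the drug as dissolved in DMSO and call the controls untreated, so the solvent and the drug cannot be told apart here. The labels do not say whether replicates came from separate cultures, so the spread between them may be technical. The question put to the libraries was how accessibility differs when EZH2 is inhibited.

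Complement works as a cascade of proteases and binding proteins: the proteases C1R, C1S, MASP1 and MASP2 are activated on bound recognition molecules and lead to the cleavage of C4 and C2, C3 is the central protein that all routes converge on, and C5 to C9 assemble into the pore that damages membranes. Coagulation is a second cascade of serine proteases and cofactors that ends with thrombin (from F2) cutting fibrinogen (FGA, FGB, FGG), and it is held in check by antithrombin (SERPINC1), heparin cofactor II (SERPIND1) and the protein C system. Most of these genes are expressed in hepatocytes under the factors HNF1, HNF4 and C/EBP. EZH2 writes H3K27me3, a histone mark of repressed chromatin.

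The libraries held 17191428 and 23800380 mapped tags in the controls and 19844503 and 26564400 under tazemetostat, with 26133, 34768, 55313 and 54157 peaks, respectively. Peaks held 4.32% and 5.69% of the tags in control 1 and 2 and 11.5% and 9.81% in tazemetostat 1 and 2. This share moved with the treatment, and its part in the tag counts below was not tested. Peaks were called with a fragment length set to 200 bp in the controls and to 144 bp in the treated libraries, and its effect and that of the drug cannot be told apart. Of 9 hepatocyte markers, 7, 7, 7 and 8 had a peak at the 5' end in control 1, control 2, tazemetostat 1 and tazemetostat 2; ALB, the albumin gene, had none in any library. Of 5 leukocyte markers only CD14 had one, in tazemetostat 1, and the 3 endothelial and 4 stromal markers had none in any library. A peak was listed only where it reached 4-fold over its surrounding 10 kb, a filter that removed between 62.7% and 80.0% of putative peaks per library, so that a missing peak is not evidence of inaccessible DNA and no value is listed for it.

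More peaks were called around the complement and coagulation genes under tazemetostat, as was the case in the whole library. Control 1 and 2 had 62 and 81 peaks in the windows, tazemetostat 1 and 2 had 120 and 117, and the groups did not overlap. The means were 71.5 ± 13.4 and 118.5 ± 2.12 (SD, n = 2), a ratio of 1.66, beside 1.80 for all peaks (exact permutation test, two-sided, p = 0.33, the smallest value that 2 against 2 allows). The members' share of all peaks was 0.237% and 0.233% in the controls and 0.217% and 0.216% under tazemetostat. Normalized tag counts are tags in a peak per 10 M mapped tags, and their sum over the windows was 1170 and 1583 in the controls and 3208 and 2727 under tazemetostat. This sum moves with the covered length, which was 27261, 38371, 59542 and 57157 bp, and the density was 42.9, 41.3, 53.9 and 47.7 tags per kb of peak. The median peak was 383.5 and 454 bp long in the controls and 434 and 459 bp after treatment, and the groups overlapped (exact permutation test, two-sided, p = 0.667). When each list was cut to the 26133 peaks with the most tags, the windows held 62, 69, 73 and 71 peaks.

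By the libraries in which they were called, 49 of the 152 regions were called in all 4 libraries (32.2%, against 20.4% of all merged regions and 23.7% of those in windows of protein-coding genes). A further 21 were called in both tazemetostat libraries and neither control (13.8%, against 13.7% and 13.3%), and 0 were called in both controls only (against 0.449% and 0.401%). The tazemetostat-only share was therefore close to the background. Of the others, 43 were called in 1 tazemetostat library (28.3%, against 33.6% of all merged regions), 10 in 1 control library (6.58%, against 12.6%) and 29 in some other mixture (19.1%, against 19.2%). At the 5' ends, from 1 kb upstream to 100 bp downstream of the start of the canonical transcript, 16 of 31 regions were shared by all libraries and 5 were tazemetostat-only. In gene bodies these counts were 12 and 9 of 62 regions, and in the flanks 21 and 7 of 59. The shares over all regions at the same positions were not computed, so no background stands beside the counts by position. The plot of regions by distance sets these positions out for each member.

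**Figure D1:**
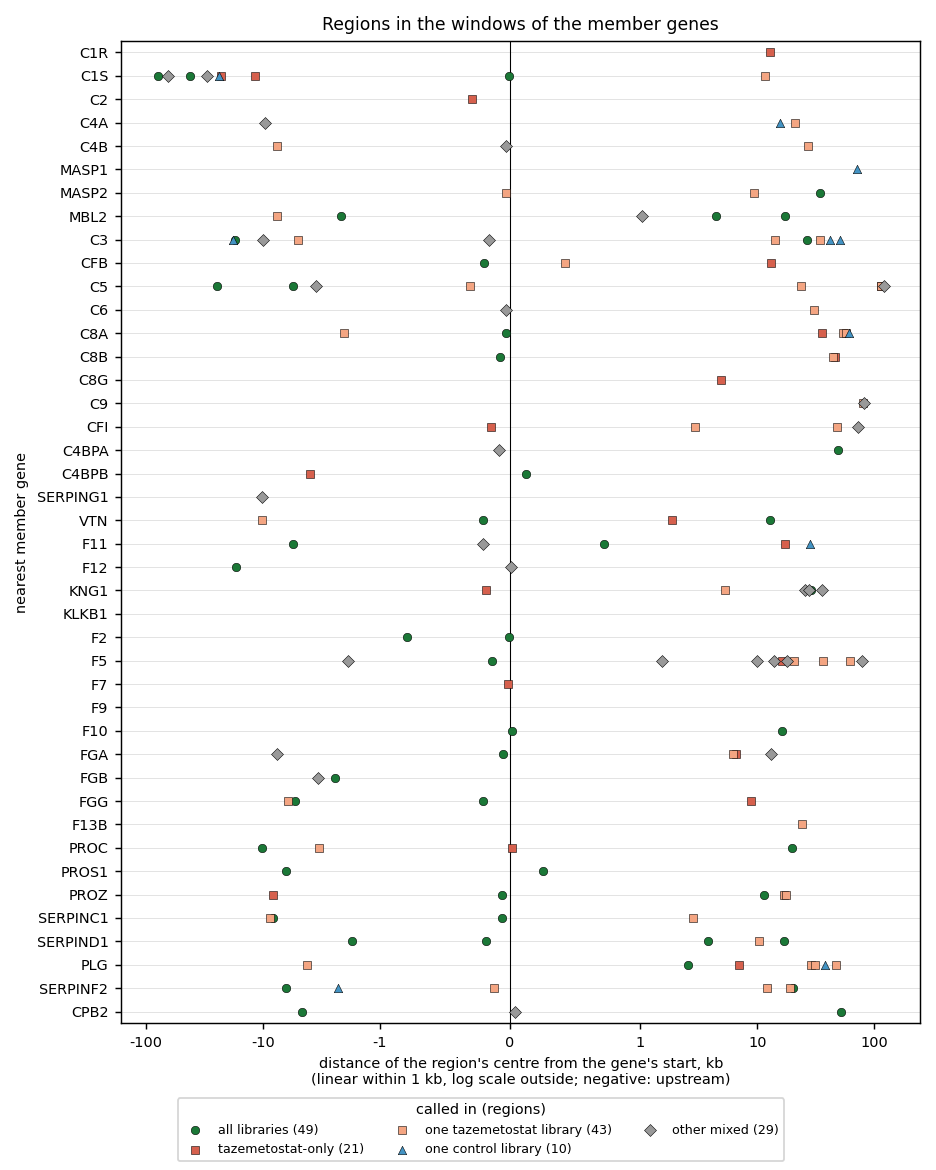
Distance of each of the 152 regions from the start of its nearest member gene, in kb (linear within 1 kb, logarithmic outside), with 1 line per member and the libraries in which the region was called as symbols. Green circles (49 regions in all libraries) lie mostly near 0 or in the flanks, the 21 tazemetostat-only regions (red squares) are spread over all positions, and F9 has no symbol.

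A 5' end peak was called for 16 and 21 of the 42 members in the controls and for 28 and 27 under tazemetostat, so that the groups did not overlap (18.5 ± 3.54 against 27.5 ± 0.707, SD, n = 2; exact permutation test, two-sided, p = 0.33). As shares these were 38.1%, 50%, 66.7% and 64.3%, beside 34.3%, 41.1%, 52.0% and 49.0% of the 19982 protein-coding genes. Members with the peak in every library numbered 15 (35.7%, against 30.6% of protein-coding genes), those with it in both tazemetostat libraries only numbered 5 (11.9%, against 5.62%), and 0 had it in both controls only (against 0.105%). The 12 members without a 5' end peak in any library made 28.6%, against 44.1%. With the start of any transcript counted, members with a peak numbered 21, 23, 30 and 29, and the share of protein-coding genes was not computed. When only peaks at least 8-fold over their surroundings were counted, the members with a 5' end peak were 8, 10, 9 and 6, and the groups overlapped. As shares these were 19.0%, 23.8%, 21.4% and 14.3%, beside 11.4%, 9.05%, 12.8% and 9.17% of protein-coding genes, while all peaks at this fold numbered 7799, 9096, 17851 and 14802.

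**Figure D2:**
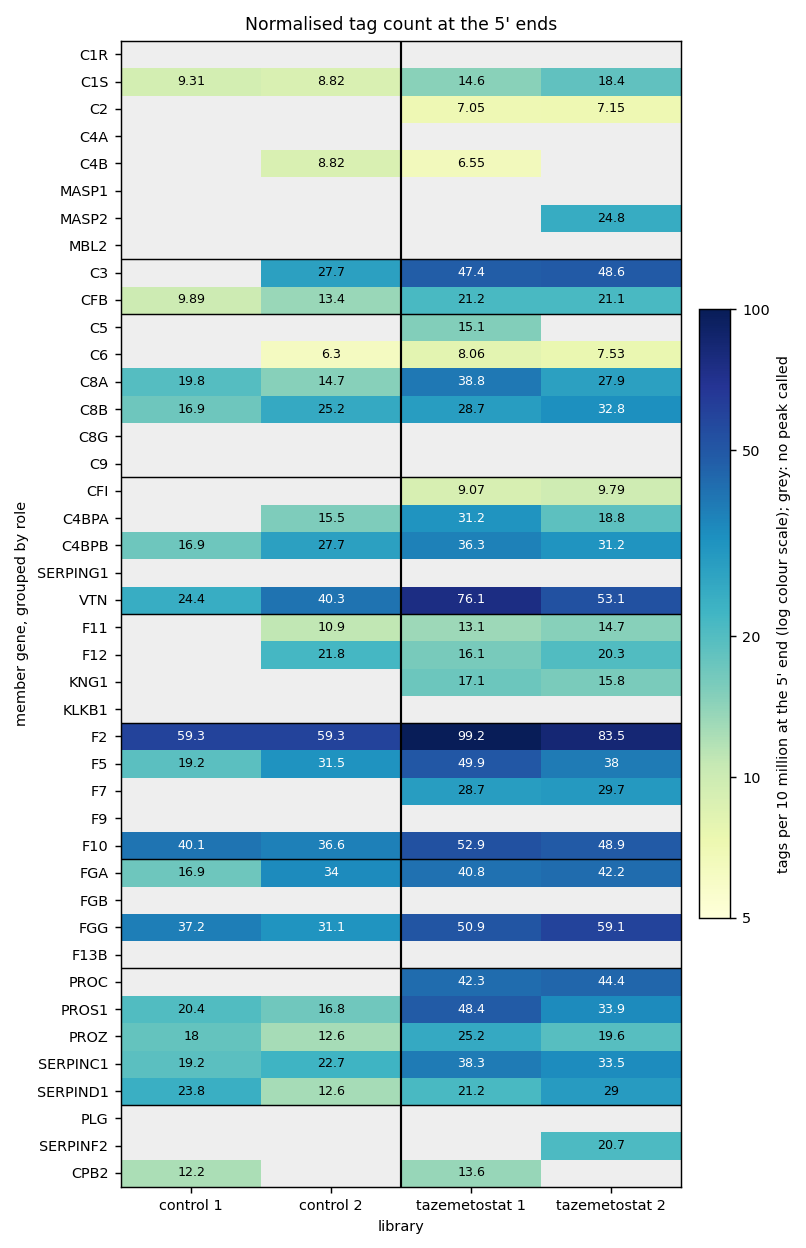
Normalized tag count (tags per 10 M, printed and as colour on a log scale) at the 5' end of each member in each of the 4 libraries, with members grouped by role and grey where no peak was called. C2, CFI, KNG1, F7 and PROC are grey in both controls and coloured in both tazemetostat libraries, and the largest sums stand at F2, where 2 regions were added.

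Among the proteins that start complement, C1S, the protease of the C1 complex, had a 5' end peak in every library. It held 9.31 and 8.82 tags per 10 M in the controls and 14.6 and 18.4 under tazemetostat. C2, which supplies the catalytic subunit of the C3 convertase, was called only under tazemetostat, at 7.05 and 7.15. This small region (chr6:31927225-31927619, centred at -295 bp) also covers the start of another annotated coding gene, ENSG00000244255. C4B had a peak of 8.82 in control 2 and 6.55 in tazemetostat 1, whereas its near-identical copy C4A had none, and reads of the pair may be split between them. MASP2, a protease of the lectin pathway, had a peak in tazemetostat 2 only (24.8). C1R, MASP1 and MBL2 had none at the canonical 5' end. MBL2, the mannose-binding lectin, had a peak at another annotated start in control 1 (15.1) and tazemetostat 1 (26.7). A strong MBL2 region in all libraries was centred at -2144 bp (chr10:52774447-52775409). This strong region held 46.5 and 63.4 in control 1 and 2 and 110.4 and 82.1 in tazemetostat 1 and 2. The groups did not overlap, as in 81.6% of all regions with 1 peak in every library.

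C3 and CFB, the proteins of the C3 convertase of the alternative pathway, both carried 5' end peaks. C3 had none in control 1, 27.7 in control 2 and 47.4 and 48.6 under tazemetostat. CFB, factor B, held 9.89 and 13.4 in the controls and 21.2 and 21.1 under tazemetostat. Of the pore-forming proteins, C8A held 19.8 and 14.7 against 38.8 and 27.9, and C8B held 16.9 and 25.2 against 28.7 and 32.8. The groups were apart for CFB, C8A and C8B, as in 81.6% of all regions with 1 peak in every library. C6 was low wherever it was called, with 6.3 in control 2 and 8.06 and 7.53 under tazemetostat. C5 had a peak at its canonical start in tazemetostat 1 only (15.1), and C8G and C9 had none. Another C5 promoter in RefSeq (chr9:121074816-121075115) overlapped a region called in all libraries.

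Of the 5 complement regulators, 4 had a 5' end peak in some library. CFI, factor I, the protease that degrades C3b and C4b, was called only there, at 9.07 and 9.79 (chr4:109801991-109802307, which also covers the start of the annotated gene ENSG00000285330). C4BPA and C4BPB encode the chains of C4b-binding protein, a cofactor of factor I. C4BPA had no peak in control 1, 15.5 in control 2 and 31.2 and 18.8 under tazemetostat. C4BPB held 16.9 and 27.7 in the controls and 36.3 and 31.2 under tazemetostat. VTN, vitronectin, which blocks the pore, held 24.4 and 40.3 against 76.1 and 53.1, in a region shared with the start of SARM1. SERPING1, the C1 inhibitor, had no 5' end peak.

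The contact factors, which start clotting on surfaces, lacked a 5' end peak in control 1. F11 held 10.9 in control 2 and 13.1 and 14.7 under tazemetostat. F12 held 21.8 in control 2 and 16.1 and 20.3 under tazemetostat, with control 2 above both. KNG1, kininogen, was called only under tazemetostat, at 17.1 and 15.8 (chr3:186716814-186717529, centred at -188 bp). KLKB1, prekallikrein, had no 5' end peak.

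Of the clotting enzymes and cofactors, F2, prothrombin, had 2 regions at its 5' end, which together held 59.3 tags per 10 M in each control and 99.2 and 83.5 under tazemetostat. F10 held 40.1 and 36.6 in the controls and 52.9 and 48.9 under tazemetostat. F7, which with tissue factor opens the extrinsic pathway, had no peak in either control and 28.7 and 29.7 under tazemetostat (chr13:113105542-113106017, centred at -12 bp). F7 and F10 are neighbours on chromosome 13, and the F10 peak, which lies in the window of both, was present in every library. F5, the cofactor of factor Xa, held 19.2 and 31.5 against 49.9 and 38. F9 had no peak.

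Of the fibrinogen genes, FGA held 16.9 and 34 in the controls and 40.8 and 42.2 under tazemetostat, and FGG held 37.2 and 31.1 against 50.9 and 59.1. FGB, the third chain, had no 5' end peak but a region in all libraries centred at -2434 bp (chr4:154559936-154561218). It held 11.1 and 28.9 in the controls and 71.6 and 59.1 under tazemetostat, and was not tested because it held 2 peaks in control 2 and in tazemetostat 2. F13B, the carrier subunit of factor XIII, had no 5' end peak.

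PROC, protein C, the protease that inactivates factors Va and VIIIa, had the highest tag count of any tazemetostat-only region. No peak was called in either control, and the region held 42.3 and 44.4 under tazemetostat (chr2:127418209-127418677, centred at 16 bp). Its cofactor PROS1, protein S, was called in every library, with 20.4 and 16.8 in the controls and 48.4 and 33.9 under tazemetostat. PROZ, protein Z, held 18 and 12.6 against 25.2 and 19.6. SERPINC1 held 19.2 and 22.7 against 38.3 and 33.5. The groups were apart there, as in 81.6% of all regions with 1 peak in every library. SERPIND1 held 23.8 and 12.6 against 21.2 and 29, so the groups overlapped. In fibrinolysis, the dissolution of clots, CPB2, a carboxypeptidase that slows it, had a peak of 12.2 in control 1 and 13.6 in tazemetostat 1, and SERPINF2, antiplasmin, had 20.7 in tazemetostat 2 only. PLG, plasminogen, had no 5' end peak, and its nearest region in all libraries, centred at 2589 bp, held 7.56 and 10.9 against 18.1 and 18.8.

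Across the 15 members called in all libraries, the ratio of tazemetostat to control means at the 5' end ran from 1.33 (F10) to 2.21 (PROS1) with a median of 1.63. For 14 of them both tazemetostat sums were above both controls, and SERPIND1 was the exception. Among all 15383 regions with 1 peak in every library, 81.6% had both tazemetostat values above both controls and 1.75% had both below, beside 40 and 0 of the 42 such regions in the windows. Levels of different genes were compared per kb of called peak. In the tazemetostat libraries the means were highest at VTN (96.5 ± 13.7 tags per 10 M per kb, SD, n = 2), F10 (95.3 ± 6.93), F2 (83.6 ± 12), FGG (82.5 ± 1.17) and FGA (71.7 ± 13.1). The 1 SD interval of VTN overlaps those of the other four, whereas F10 lies above FGG and FGA by this measure. The means were smallest at PROZ (41.5 ± 2.07), C8A (41.4 ± 10.2), PROS1 (39.7 ± 6.15) and C1S (39.5 ± 0.951), whose intervals overlap each other and those of the next, C4BPB (43.9 ± 5.45) and CFB (46.6 ± 13). In the controls F10 was highest (70.3 ± 2.90), above F2 (59.0 ± 0.830), FGG (57.6 ± 1.58) and VTN (57.2 ± 9.88), and the last 3 overlap. Per kb both tazemetostat values were above both controls in 13 of the 15 genes, and PROZ and C8A overlapped. The same share over all tested regions was not computed per kb, so no background stands beside this count.

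The tazemetostat-only regions at PROC and F7 held more tags than the median member peak in each tazemetostat library (18.6 and 18.1), and the region at KNG1 held fewer. The local fold was 5.50 and 4.40 at PROC, 5.30 and 4.81 at F7 and 5.73 and 4.45 at KNG1, against a threshold of 4 and medians of 5.73 and 5.12 over the 21 tazemetostat-only regions. C2 and CFI had fewer tags but a higher local fold, 11.6 and 7.63 at C2 and 7.19 and 7.57 at CFI. At the 5' ends, PROC, F7 and KNG1 were still called in tazemetostat libraries only when every list was cut to 26133 peaks, and C2 and CFI were not. That cut removes the peaks with the fewest tags and can add none in a control, so this result follows from the tag counts. With a local fold of at least 8 required, 0 members had a tazemetostat-only 5' end, and C4BPB and C8A became control-only (2 members). Both have peaks under tazemetostat below that fold, at 6.79 and 5.32 for C4BPB and 4.07 and 5.55 for C8A. The shares of protein-coding genes in these classes at that fold were not computed, so no background stands beside these counts. For PROC, F7, KNG1, C2 and CFI a level at these positions in the controls is not listed, so no fold is given.

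**Figure D3:**
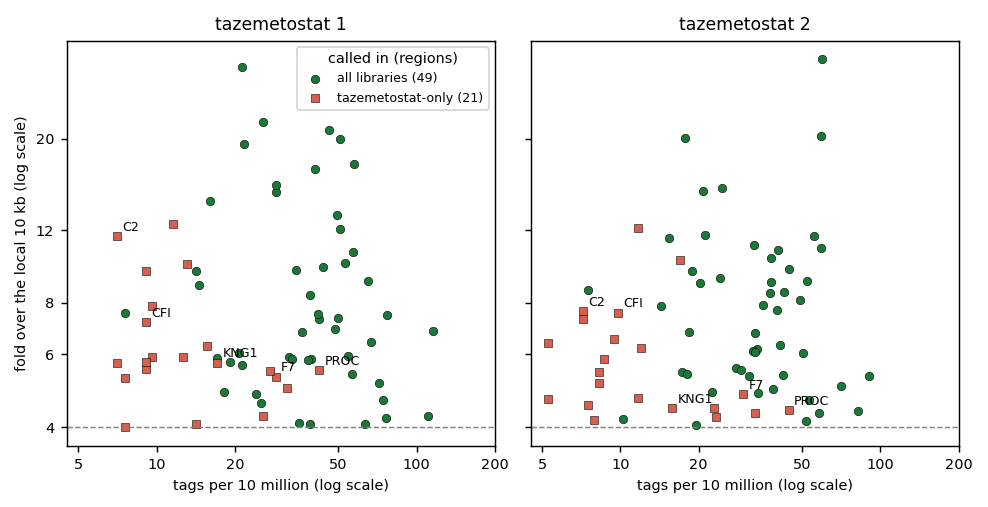
Tags per 10 M against the fold over the local 10 kb (both axes logarithmic) in each tazemetostat library, for the 49 member regions called in all libraries and the 21 tazemetostat-only regions. The dashed line is the caller's threshold of 4, and PROC and F7 sit to the right among the shared regions in tags but close to the line.

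Away from the 5' ends, the 10 tazemetostat-only regions with the most tags were led by one beyond the end of C8G (chr9:136949880-136950344, centred at 4869 bp), which held 31.7 and 33.1. The next lay between F10 and PROZ on chromosome 13 (chr13:113150250-113150719) and held 27.2 and 23. F7, F10 and PROZ, which encode related vitamin K dependent proteins, stand side by side there. A region in the body of VTN (chr17:28368260-28368583) held 25.7 and 23.3 and covers the start of the annotated gene ENSG00000273171. The other 7 were lower: F5 body (9.07 and 16.9), C8A and C8B flank (12.6 and 12), CFB flank (11.6 and 11.7), FGG flank (14.1 and 7.91), C1S body (15.6 and 5.27), F11 body (13.1 and 7.15) and PLG body (7.56 and 11.7). The CFB flank region covers the starts of NELFE and SKIC2 and had the highest local fold in both libraries, 12.4 and 12.1. Over the 21 tazemetostat-only regions the median of the mean tazemetostat level was 10.4, beside 10.7 over all 11044 such regions. The 49 regions in all libraries had a median of 37.0 (all 16430 such regions, 31.0). Of the 152 regions, 18 covered the start of another protein-coding gene, and without them 17 were tazemetostat-only, 0 control-only and 40 in all libraries.

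The 300 bases around member starts were read from RefSeq (GRCh38.p14, 250 bases before to 50 after each start), which gave 44 promoter sequences for 34 of the 42 members. C1S, C3, C4A, C4B, C8G, SERPING1, SERPINC1 and SERPINF2 were not matched. Both strands were searched for HNF1 (GTTAATNAT), HNF4 (CAAAGTCCA and AGGNCAAAG) and C/EBP (TTNNGCAA), where N is any base. Some members have several, partly overlapping promoters, so matches were counted by gene. HNF1 letters were found in 5 of the 34 members (14.7%, against 0.963% of all 27305 genes with a promoter), HNF4 letters in 3 (8.82%, against 2.41%) and C/EBP letters in 10 (29.4%, against 12.7%). At least 1 of the 3 was found in 11 of the 25 members with a region over a promoter and in 5 of the 9 without one. Of the 14 members with such a region in all libraries, 5 held at least 1 (35.7%), beside 15.4% of all genes. These counts are by gene, so the letters and the region can lie in different promoters. In PROC and MBL2 the letters lie in a promoter without a region. In C5, among the 5, they lie in a promoter called in 1 tazemetostat library only. A match describes the letters and is not a bound site.

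The promoters of FGA, F10, PROZ and VTN are shown because they hold a motif and overlap a region called in all libraries, and that of C4BPA because it holds HNF1 letters and was called in all but control 1. Capitals mark the matches, and positions count from the start, with negative numbers upstream. FGA holds all 3 kinds: C/EBP at -141 to -134, HNF4 at -67 to -59 and HNF1 at -55 to -47. F10 (-2 to 7) and PROZ (-34 to -26) hold the same HNF4 letters, VTN holds C/EBP at -225 to -218 and -47 to -40, and C4BPA holds HNF1 at -50 to -42.
FGA, chr4:154590693-154590992, minus strand: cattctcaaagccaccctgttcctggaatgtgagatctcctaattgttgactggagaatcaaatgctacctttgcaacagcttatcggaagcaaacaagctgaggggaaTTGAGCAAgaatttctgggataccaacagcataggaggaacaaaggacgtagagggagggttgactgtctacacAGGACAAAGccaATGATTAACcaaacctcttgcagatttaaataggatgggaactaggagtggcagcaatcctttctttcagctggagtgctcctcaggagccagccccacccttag
F10, chr13:113122549-113122848, plus strand: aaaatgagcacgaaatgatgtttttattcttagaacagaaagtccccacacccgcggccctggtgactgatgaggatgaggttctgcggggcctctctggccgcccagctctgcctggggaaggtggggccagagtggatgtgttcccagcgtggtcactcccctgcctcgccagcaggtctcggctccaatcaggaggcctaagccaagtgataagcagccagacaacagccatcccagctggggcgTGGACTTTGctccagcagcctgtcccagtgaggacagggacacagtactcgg
PROZ, chr13:113158398-113158697, plus strand: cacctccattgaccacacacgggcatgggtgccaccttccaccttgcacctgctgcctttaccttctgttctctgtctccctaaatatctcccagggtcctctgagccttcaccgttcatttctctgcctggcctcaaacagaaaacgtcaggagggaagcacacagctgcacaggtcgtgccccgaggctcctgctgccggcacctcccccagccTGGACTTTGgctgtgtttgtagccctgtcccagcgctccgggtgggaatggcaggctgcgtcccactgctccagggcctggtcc
VTN, chr17:28370258-28370557, minus strand: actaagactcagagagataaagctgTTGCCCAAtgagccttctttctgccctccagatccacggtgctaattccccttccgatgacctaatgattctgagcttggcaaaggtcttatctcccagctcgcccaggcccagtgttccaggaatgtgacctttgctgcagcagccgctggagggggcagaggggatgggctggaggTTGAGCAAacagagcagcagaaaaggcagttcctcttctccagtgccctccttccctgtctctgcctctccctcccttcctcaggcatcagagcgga
C4BPA, chr1:207103983-207104282, plus strand: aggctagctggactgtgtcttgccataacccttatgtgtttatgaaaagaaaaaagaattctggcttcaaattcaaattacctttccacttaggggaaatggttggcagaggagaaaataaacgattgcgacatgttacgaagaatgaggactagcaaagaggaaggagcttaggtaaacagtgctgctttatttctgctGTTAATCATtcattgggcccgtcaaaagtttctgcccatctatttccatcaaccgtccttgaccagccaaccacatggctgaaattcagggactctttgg

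The promoters of PROC, F7 and KNG1 are shown because their 5' ends were called only under tazemetostat, with tag counts that kept the class at equal peak numbers. KNG1 holds C/EBP letters at -210 to -203, in capitals. The PROC and F7 windows hold none of the exact letters searched. A site of these factors with other letters would be missed, so this does not show that such sites are absent. For PROC, which has 2 promoters in RefSeq, the one at the called region is given, and the other, outside it, holds C/EBP letters at -220 to -213.
PROC, chr2:127418177-127418476, plus strand: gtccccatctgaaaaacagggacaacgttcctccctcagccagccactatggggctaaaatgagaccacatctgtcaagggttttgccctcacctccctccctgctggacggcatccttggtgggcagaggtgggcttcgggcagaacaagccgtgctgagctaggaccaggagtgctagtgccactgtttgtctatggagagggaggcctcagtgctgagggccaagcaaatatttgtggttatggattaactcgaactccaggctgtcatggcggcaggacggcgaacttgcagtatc
F7, chr13:113105541-113105840, plus strand: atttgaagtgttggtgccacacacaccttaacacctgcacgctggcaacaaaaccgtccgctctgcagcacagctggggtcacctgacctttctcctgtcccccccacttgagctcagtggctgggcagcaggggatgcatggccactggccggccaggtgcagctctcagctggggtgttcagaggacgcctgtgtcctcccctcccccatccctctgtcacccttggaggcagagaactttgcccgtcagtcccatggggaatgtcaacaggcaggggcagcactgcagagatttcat
KNG1, chr3:186717109-186717408, plus strand: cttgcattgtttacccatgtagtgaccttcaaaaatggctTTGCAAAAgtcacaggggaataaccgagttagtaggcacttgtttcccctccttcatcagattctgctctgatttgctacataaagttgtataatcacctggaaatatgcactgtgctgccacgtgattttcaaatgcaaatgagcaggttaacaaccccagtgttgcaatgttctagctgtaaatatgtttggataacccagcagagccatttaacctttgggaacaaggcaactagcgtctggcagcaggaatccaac

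FGB and PLG, which had no 5' end peak, also hold such letters, C/EBP at -132 to -125 in FGB and HNF1 at -49 to -41 in PLG, counted from the canonical start. F13B holds HNF1 letters at -59 to -51, also without a peak.

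Of the 152 regions, 42 had exactly 1 peak in every library and could be compared by their tag counts (15383 of all regions). In limma on log2(normalized tag count + 1), 18 of the 42 rose under tazemetostat (42.9%) and 0 fell, at an adjusted p under 0.05, beside 42.7% of all tested regions that rose and 0.247% that fell. Without adjustment, 28 were higher and 0 lower at p under 0.05, beside 58.0% and 0.442% of all tested regions. The median log2 change of the members was 0.72, and that of all tested regions 0.70, a difference of far less than the spread among the members, which ran from -0.050 to 1.32. With each library centred on its median, 18 of the 42 lay above 0 and 24 below, the median was -0.043, and 0 passed the threshold in either direction, as was the case for all tested regions. Without adjustment, 1 was then higher and 1 lower at p under 0.05, beside 3.04% and 7.72% of all tested regions. The count was also 0 of 46 without tazemetostat 1 and 0 of 44 without tazemetostat 2, as was the case for all tested regions; before adjustment 9 and 14 were higher, beside 20.5% and 38.1% of all tested regions. It was 7 of 60 (11.7%, against 13.3% of all tested regions) without control 1 and 27 of 46 (58.7%, against 49.5%) without control 2. By position, 6 of 15 regions at the 5' ends, 5 of 11 in bodies and 7 of 16 in flanks rose, with median log2 changes of 0.69, 0.69 and 0.74. All directions below are those before centring.

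The region with the greatest change lay upstream of FGG (chr4:154617673-154618300, centred at -5330 bp). Its tags per 10 M were 14.5 and 19.3 in control 1 and 2 and 49.4 and 38.0 in tazemetostat 1 and 2, a log2 change of 1.32 ± 0.30 (SE; limma, adjusted p = 0.00866). Centred, the change was 0.56. A region in the body of SERPIND1, heparin cofactor II, held 11.1 and 18.1 against 38.8 and 32.4 (log2 change 1.26, limma adjusted p = 0.0107). The region in the C3 flank (chr19:6737465-6738155) covers the start of GPR108 and held 22.7 and 32.4 against 74.1 and 58.0 (log2 change 1.24, limma adjusted p = 0.0107). Its length differed too, 300 and 375 bp in the controls and 690 and 625 bp under tazemetostat, and per kb of peak its log2 change was 0.30 (limma adjusted p = 0.247) and below 0 once centred (-0.14).

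A region beyond the end of C4BPA, centred at 48990 bp, held 7.56 and 11.8 against 25.7 and 17.7 (log2 change 1.09). The region between KLKB1 and F11, centred at -5505 bp from the start of F11, held 29.1 and 27.7 against 67.0 and 55.7 (log2 change 1.08). A flank region of SERPIND1 held 16.9 and 27.7 against 45.9 and 44.4 (log2 change 1.03). In these 3 the groups did not overlap, as in 81.6% of all tested regions. For the same 3, limma gave adjusted p = 0.0164, 0.0142 and 0.0193. Of the next 4, the log2 changes were 1.00 at the 5' end of VTN, 0.95 in the PLG body, 0.91 at the 5' end of C8A and 0.84 in the SERPINC1 flank, which held 9.89 and 9.66 against 16.1 and 20.7 (limma adjusted p = 0.0240, 0.0231, 0.0280 and 0.0329). Per kb of peak and centred, the changes of C8A (-0.15) and PLG (-0.16) were below 0. Besides VTN and C8A, the 5' ends of CFB, F5, C1S and SERPINC1 rose, with log2 changes of 0.82, 0.80, 0.79 and 0.75, and SERPINC1 was at -0.0091 once centred.

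At the other end, a region in F11 (chr4:186266739-186267078, centred at 719 bp) was the only tested member region with a value below 0. It held 8.14 and 7.56 in the controls and 7.56 and 7.53 under tazemetostat, and was 300 bp long in every library. The log2 change was -0.050 ± 0.29 (SE; limma, adjusted p = 0.880), and centred it was -0.81. The 5' end of F10 followed with a log2 change of 0.40 (limma adjusted p = 0.232). The region of the windows with the most tags, in the PROC flank (chr2:127438005-127438828, centred at 19989 bp), held 69.2 and 76.5 against 115.9 and 90.7, a log2 change of 0.49 that did not pass the test (limma adjusted p = 0.157). Per kb of peak, 17 of the 42 regions rose (32.9% of all tested regions did), 13 of the 18 above and 4 others.

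**Figure D4:**
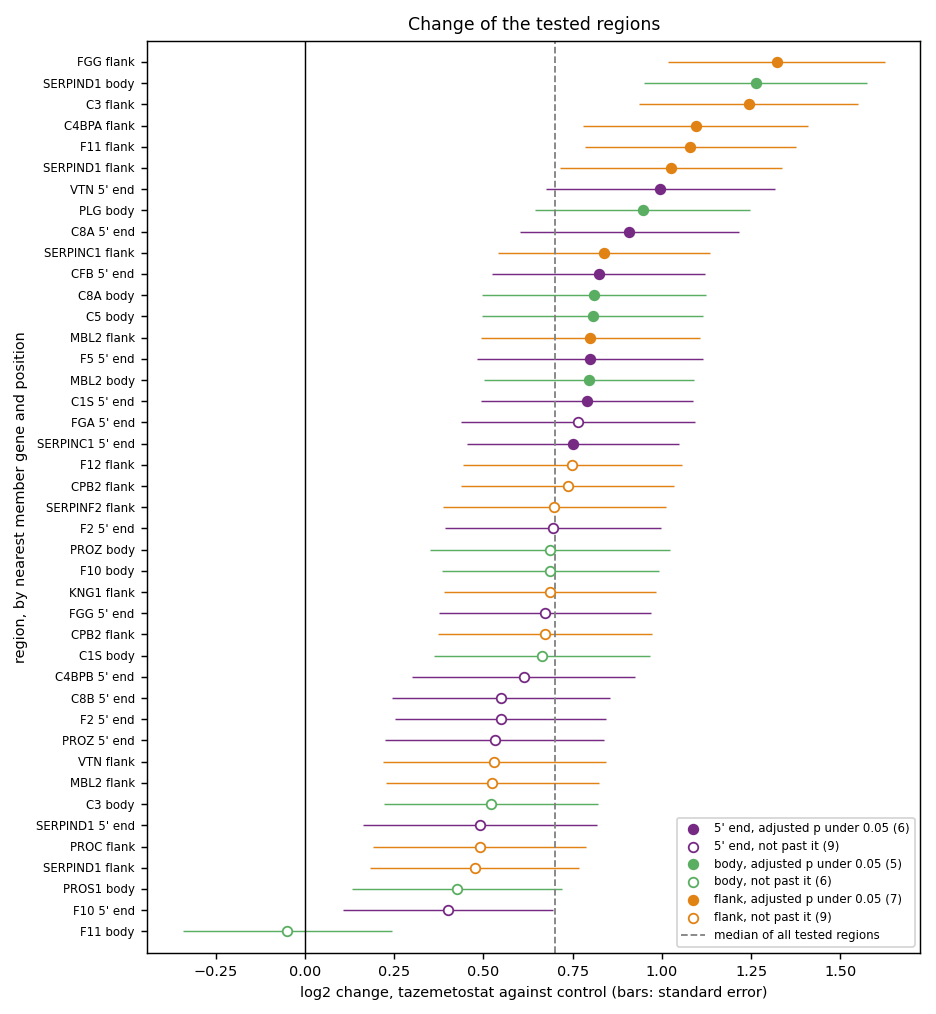
Log2 change of the 42 tested member regions, tazemetostat against control, with bars for the standard error (limma, n = 2 per group), coloured by position and filled where the adjusted p was under 0.05. All but the F11 body region lie above 0, they lie on both sides of the dashed line, the median of all tested regions (0.70), and centring each library on its median puts 24 of them below 0.

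By role, the terminal complement genes had 3 of 4 tested regions that rose, the proteins that start complement 3 of 5, C3 and CFB 2 of 3, and the complement regulators 2 of 4. The anticoagulants had 4 of 10, while the contact factors had 1 of 4, the clotting enzymes and cofactors 1 of 5, fibrinogen and factor XIII 1 of 3, and fibrinolysis 1 of 4. Median log2 changes ran from 0.61 in the anticoagulants to 0.82 in C3 and CFB. Over all tested regions 42.7% rose, and with each library centred on its median 0 member regions passed the threshold. With 3 to 10 regions per role, differences between roles were not tested.

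Complement and coagulation genes outside the 42 were read in the same way. Of 46 such genes, among them receptors, recognition molecules and proteins of other cell types, 8, 8, 12 and 13 had a 5' end peak in the 4 libraries. The shares were 17.4%, 17.4%, 26.1% and 28.3%, beside 34.3%, 41.1%, 52.0% and 49.0% of protein-coding genes. Without a peak in any library were 32 (69.6%, against 44.1%). A2M, CD46, CD55, CD59 and F2RL1 had a 5' end peak in all libraries (5 of 46, 10.9%, against 30.6% of protein-coding genes). CD59, which guards cells against the complement pore, held 8.14 and 12.6 in the controls and 30.7 and 28.6 under tazemetostat. F3, PLAU and F2R (3 of 46, 6.52%) were called only under tazemetostat, a share close to the 5.62% of protein-coding genes. F3, tissue factor, the partner of factor VIIa, held 23.7 and 16.6 under tazemetostat and had no peak in the controls, as was the case for F7. PLAU, the urokinase that activates plasminogen, held 14.6 and 16.9, and F2R, the thrombin receptor, held 16.1 and 19.2 in the larger of its regions.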

How the data were processed

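ATAC-seq of 2 untreated and 2 tazemetostat-treated HepG2 libraries was analysed from 1 peak list per library. The labels and methods name Trim Galore 0.6.6, Bowtie2 2.3.5.1 (hg38) and HOMER 4.11.1 as the tools of the authors. The file headers show peaks called per library, without pooling, at a false discovery rate of 0.001 and a local p-value of 0.0001. The deposited normalized tag count is a signal, tags per 10 M mapped tags of that library. The deposited fold over the local background is a ratio and was used as an alternative filter. The deposited score, p-value and clonal fold columns were not used for tests. Sites below these thresholds are not listed. Alignment included alternate contigs of chromosome 6 (85, 158, 367 and 347 peaks), so the levels of C2, CFB, C4A and C4B may be too low; this was not tested. The labels mention no molecular identifiers.

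Peaks were merged at 1 bp overlap and assigned to windows of GENCODE release 44. A region counted as 5' end from 1 kb before to 100 bp after the start of the canonical transcript. Values per library were tested with the exact permutation test, regions with 1 peak in every library with limma 3.58.1 in R 4.3.3 (log2 values, pseudocount 1, Benjamini-Hochberg over 15383 regions, threshold 0.05), which understates changes of low values. Merging and limma were tested on simulated data. Python 3.11.15 did the rest.

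The members and all lists (42 genes in 9 roles, 46 further pathway genes, markers, motifs) were chosen with earlier results of these data known. Named with values were members with a 5' end region, tazemetostat-only and control-only 5' ends, the 10 other tazemetostat-only regions and 5 other control-only regions with most tags (0 of the latter existed), and the 10 largest rises and 5 largest falls in limma; only 1 region lay below 0. Regions of MBL2, FGB, PLG and the PROC flank, other low changes and the CD59, F3, PLAU and F2R values were added after their values were seen. Alternatives were another flank, overlap, start, local fold, number of peaks, scaling, pseudocount, filter, block and leaving out each library. Removing regions at other genes' starts, and scaling per kb with centring, were chosen after seeing the data.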

Additional observations from a re-analysis of the deposited data

How the results depend on the processing

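Directions of the members' peak count and summed tag count held under every alternative run, but their sizes did not. Differences between group means (tazemetostat minus control) were 47 peaks and 1591 tags per 10 M, against 9 peaks and 444 tags with a local fold of at least 8, 6.5 peaks and 1204 tags with equal peak numbers, and 37.5 to 56.5 peaks and 1351 to 1832 tags when 1 library was left out. The number of members with a 5' end peak differed by 9, and by 7.5 with the start of any transcript. It differed by 6.5 to 11.5 with 1 library left out, and by -1.5 with a local fold of at least 8. The median peak length differed by 27.75 bp, by -25.75 bp with flanks of 2 kb and by -7.5 to 63 bp with 1 library left out. Tazemetostat-only regions numbered 21, against 3 with a local fold of at least 8, 7 with equal peak numbers and 23 to 43 with 1 library left out, where 1 library can make the class. Control-only regions numbered 0, against 2 with a local fold of at least 8 and 0 to 6 with 1 library left out, and regions in all libraries numbered 49, against 7 with that local fold, where fewer peaks enter. The shares of these classes over all merged regions were not computed under the alternatives, so no background stands beside these counts. In limma, 18 member regions were higher, against 6 (of 7 tested) with that local fold, 0 with each library centred on its median, 0 per kb of peak and centred, and 0 to 27 with 1 library left out; 0 were lower under every setting. The median log2 change was 0.72, -0.043 centred and 0.049 per kb and centred; the causes of these changes were not tested.

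Among the 11 named tested regions, the changes of C8A (-0.15), PLG (-0.16) and the C3 flank (-0.14) reversed per kb of peak and centred. Labels number replicates 1 and 2 in both groups, but the deviations of same-numbered libraries had a correlation of -0.0025. This value shows no pairing by number, and it cannot exclude that same-numbered libraries were prepared together. With the replicate block, limma called 9 member regions higher (32.8% of all tested regions) and 0 lower, and the exact sign test over the 2 pairs cannot go below p = 0.5. Count tests (edgeR and DESeq2) were planned and not run. The deposited values are normalized and rounded, and were not accepted as whole tag counts. Scaled back by mapped tags, they were within 0.25 of a whole number in 100% of peaks in every library. With 2 libraries per group, no exact test over libraries can reach 0.05. What a missing peak owes to depth was not tested.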
